A study of Arabidopsis thaliana with 8 samples.

Results

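The genes that encode the histone H3 variants H3.1 and H3.3 were followed in inflorescences of Arabidopsis thaliana. They were taken by locus identifier from a list of 8 genes: the intronless H3.1 genes AT1G09200, AT3G27360, AT5G10390, AT5G10400 and AT5G65360, and the intron-bearing H3.3 genes AT4G40030, AT4G40040 and AT5G10980. Of these, 7 have a row among the 32232 loci of the expression table, and AT3G27360 is not analysed here. The reference annotation gives the members no gene symbols, only the product names H3.1 and H3.3, so locus identifiers are used throughout. Histone H3 is a core subunit of the nucleosome, around which DNA is wrapped. H3.1 is the replicative form, made mainly while DNA is copied and deposited behind the replication fork, and its genes therefore mark dividing cells. H3.3 replaces it outside replication, mostly over transcribed genes, and its genes are expressed in dividing and non-dividing cells.

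The samples were 8 libraries of ribosomal RNA-depleted RNA in 4 groups of 2. Plants of the Columbia ecotype, either wild type (Col-0) or carrying dbr1-2, were grown at 22 °C in 16 h of light and 8 h of dark, and each genotype was sequenced without RNase R and after RNase R for 2 h at 37 °C. The enzyme DBR1 linearises the lariats in which introns leave the spliceosome. The exonuclease RNase R digests linear RNA from its end and spares circles and the loops of lariats. The sources used here give neither the lesion in dbr1-2 nor whether the 2 replicates of a group came from separate plants, so p-values measure only the spread between these libraries, which may be technical.

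DBR1 itself had a level of 0.662 and 0.694 FPKM in undigested Col-0 and of 0.339 and 0.43 FPKM in undigested dbr1-2. After digestion the Col-0 libraries had 0.202 and 0.188 FPKM and the dbr1-2 libraries 0.265 and 0.26 FPKM. All 8 values are below the 1 FPKM asked for in testing. The sequencing tags carry dates from 2 years. Without RNase R, replicate 1 of both genotypes has the earlier year and replicate 2 the later. With RNase R, both Col-0 tags have the later year and both dbr1-2 tags the earlier, so year and genotype cannot be told apart there. The tag of dbr1-2 replicate 1 with RNase R names removal of ribosomal RNA only, whereas the other 7 also name removal of mRNA. FPKM is fragments scaled by transcript length and by library size, so levels of different genes can be compared. Over all loci its sum was 295494 to 384482 in undigested libraries and 2796449 to 4003096 in digested ones. Estimated from the steps between low values, 1 FPKM on a kilobase rested on 74 to 89.4 reads without RNase R and on 8.64 to 12.9 with it.

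All 8 genes encode a protein of 136 residues in 411 coding nt, and within each class the encoded protein was the same in every gene. AT4G40030 has 2 distinct annotated coding sequences, and only 1 of them was read here. The classes differed at 4 codons, 32, 42, 88 and 91 counted from the start codon, which are residues 31, 41, 87 and 90 when the start methionine is left out. Beneath the identical proteins the coding sequences differed. Nucleotide identity was 80.29% to 89.54% within H3.1, 78.59% to 88.81% within H3.3 and 73.97% to 80.29% between the classes. The stretch from codon 29 to codon 45 is shown for 2 genes of each class, from RefSeq (TAIR10.1), because it holds the first 2 of the codons that separate them, in capitals.
AT1G09200: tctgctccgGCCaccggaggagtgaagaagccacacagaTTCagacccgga
AT5G65360: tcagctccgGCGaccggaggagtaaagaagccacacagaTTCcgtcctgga
AT4G40040: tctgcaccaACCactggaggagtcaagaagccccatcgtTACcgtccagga
AT5G10980: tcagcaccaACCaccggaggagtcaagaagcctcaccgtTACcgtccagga
The stretch from codon 85 to codon 94 holds the other 2, again in capitals.
AT1G09200: ttccagagcAGTgccgtcGCCgctcttcag
AT5G65360: ttccagagcAGCgccgtcGCAgcacttcag
AT4G40040: ttccagagcCATgctgtgCTTgcactccag
AT5G10980: tttcagagtCACgcggtgTTAgctcttcaa
Within each class the codons in capitals encode the same residue, and between the classes a different one, while the lower-case letters vary among genes of 1 class without changing the protein. These silent differences bear on the measurements. No stretch of 100 nt in a member's transcripts was found elsewhere in the genome, and of stretches of 50 nt only AT5G10400 (1.36%) and AT3G27360 (1.28%) had any found elsewhere.

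All 8 genes lie on the minus strand in the TAIR10.1 annotation. The H3.1 genes have no introns: AT1G09200 lies at chr1:2971571-2972334, AT5G10390 at chr5:3268847-3269594, AT5G10400 at chr5:3270172-3270957 and AT5G65360 at chr5:26119859-26120581. Among H3.3 genes, AT4G40030 (chr4:18555532-18557106) has 3 introns, AT4G40040 (chr4:18557149-18558945) has 4 and AT5G10980 (chr5:3472405-3473570) has 2. AT5G10390 and AT5G10400 are 577 nt apart, and AT4G40030 and AT4G40040 only 42 nt. The interval listed for AT5G10390 is shared with AT5G10370, so its values are uncertain.

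Plant histone promoters often carry an octamer, CGCGGATC, which was searched on both strands in the 250 nt before each gene start. It was found in 3 of 5 H3.1 promoters and in 1 of 3 H3.3 promoters (AT4G40040), against 37 of all 27443 promoters of that length (0.135%). Some of these windows overlap another annotated gene: that of AT3G27360 overlaps AT3G27380, that of AT4G40030 overlaps AT4G40040, and that of AT4G40040 overlaps AT4G40042. The 3 H3.1 windows that hold the octamer are shown in RefSeq (TAIR10.1) sequence because these genes come to differ from each other below. They read 5′ to 3′ on the gene's strand, the minus strand of the coordinates given, with the octamer in capitals and, in AT5G10400, also the other strand of the hexamer.
AT1G09200, chr1:2972335-2972584: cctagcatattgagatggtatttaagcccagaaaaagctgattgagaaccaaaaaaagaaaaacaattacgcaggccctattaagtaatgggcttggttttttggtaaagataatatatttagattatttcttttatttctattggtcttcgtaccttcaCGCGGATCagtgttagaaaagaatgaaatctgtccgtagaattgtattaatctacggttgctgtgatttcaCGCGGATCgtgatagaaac
AT5G10400, chr5:3270958-3271207: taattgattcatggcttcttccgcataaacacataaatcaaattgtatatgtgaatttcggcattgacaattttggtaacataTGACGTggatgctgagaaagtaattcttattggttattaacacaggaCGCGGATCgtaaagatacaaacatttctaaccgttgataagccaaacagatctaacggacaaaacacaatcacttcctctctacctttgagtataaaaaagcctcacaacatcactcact
AT5G65360, chr5:26120582-26120831: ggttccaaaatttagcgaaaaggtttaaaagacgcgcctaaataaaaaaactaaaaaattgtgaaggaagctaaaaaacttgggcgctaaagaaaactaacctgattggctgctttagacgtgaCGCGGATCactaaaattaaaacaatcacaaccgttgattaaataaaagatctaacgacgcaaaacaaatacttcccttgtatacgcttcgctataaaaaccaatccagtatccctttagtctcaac
AT1G09200 held the octamer at 2 places, and AT5G10400 and AT5G65360 at 1 place each. The hexamer ACGTCA, another element described in plant histone promoters, was in 7.69% of all promoters, and among members in those of AT3G27360, AT5G10400 and, at 2 places, AT5G10980. These matches describe the letters in the windows and no more.

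The H3.3 gene AT4G40040 had the highest level of the 7 in every library. In undigested Col-0 it had 74.3 and 72.3 FPKM, followed by AT4G40030 (57.6 and 50.9 FPKM) and the H3.1 gene AT1G09200 (50.4 and 50.9 FPKM), which overlapped. AT5G65360 (35.1 and 31.5 FPKM) overlapped with AT5G10980 (29.8 and 34.0 FPKM). Below them stood AT5G10400 at 24.7 and 23.5 FPKM and AT5G10390 at 9.61 and 8.73 FPKM, each apart from its neighbours in the order. As means the highest and lowest were 73.3 ± 1.39 and 9.17 ± 0.618 FPKM (SD, n = 2). Other H3 genes were lower still: HTR12, which encodes the centromeric H3, had 1.42 and 1.35 FPKM in the same libraries, and MGH3, a male gamete H3, 0.0766 and 0.16 FPKM.

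**Figure D1:**
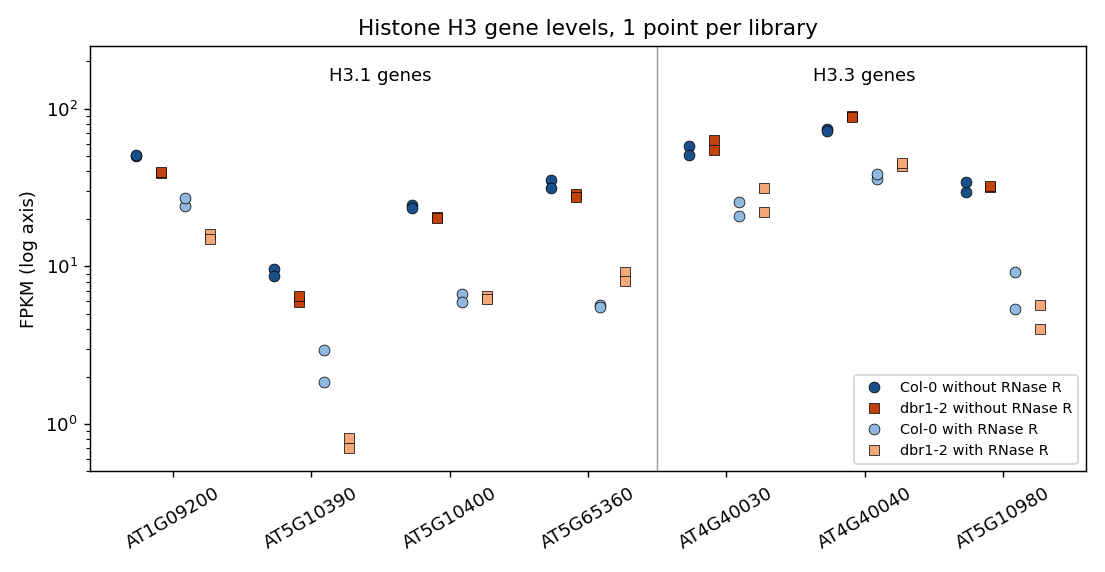
FPKM (log axis) of the 4 H3.1 and 3 H3.3 genes, 1 point per library in each of the 4 groups. All genes were lower with RNase R, and without it the dbr1-2 points lie below the Col-0 points in the 4 H3.1 genes, for example 39.1 and 39.7 against 50.4 and 50.9 FPKM in AT1G09200.

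Without RNase R, the comparison of dbr1-2 with Col-0 asks how the mutant differs in its ribosomal RNA-depleted transcriptome. The tags of all these libraries also name removal of mRNA, so their levels may be those of the RNA left by that step, which was not tested. AT1G09200 was lower in dbr1-2, and the other 3 H3.1 genes lay below Col-0 in every library without passing the test. No H3.3 gene passed it. Fits used log2(FPKM + 1) in limma over 14351 loci, with Benjamini-Hochberg adjustment and a threshold of 0.05, and differences are on that scale, which understates the change of low genes. Over all loci tested 14.2% were called higher (2042 loci) and 3.32% lower (476 loci), and the median difference was 0.13, so a gene at 0 lies below the middle of all loci. The split depends on the scaling: it was 725 higher and 419 lower after median-ratio scaling, 1008 and 855 after quantile normalization, 2321 and 1883 as TPM, and 1634 and 1375 with organelle and ribosomal RNA loci removed. Beside these shares, 1 of 4 H3.1 genes was called lower and 0 of 3 H3.3 genes were called.

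AT1G09200 had 39.1 and 39.7 FPKM in dbr1-2 against 50.4 and 50.9 FPKM in Col-0. The groups were apart by far more than the gap between replicates, and the difference was −0.35 ± 0.09 (SE, adjusted p = 0.0341), or −0.48 relative to the median of all loci. The call was lost when any 1 of the 4 libraries compared was left out (adjusted p from 0.155 to 0.205), with TPM (0.0827), with organelle and ribosomal RNA loci removed (0.486) and with the tag year as a covariate (0.0593). The difference itself stayed between −0.51 and −0.34 in those fits. The values rest on an estimated 3621 reads in Col-0 and 2387 in dbr1-2, which puts the counting error of their log2 ratio at 0.04.

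AT5G10390 had 5.94 and 6.44 FPKM in dbr1-2 against 9.61 and 8.73 FPKM in Col-0, a difference of −0.50 ± 0.16 (adjusted p = 0.0659). AT5G10400 had 20.6 and 20.2 FPKM against 24.7 and 23.5 FPKM (−0.23 ± 0.09, adjusted p = 0.122). AT5G65360 had 28.7 and 27.4 FPKM against 35.1 and 31.5 FPKM (−0.24 ± 0.10, adjusted p = 0.146). In none of the 3 did the genotypes overlap, and all 3 had an unadjusted p under 0.05. Their calls depend on the scaling: median-ratio scaling called AT5G10400 and AT5G65360 lower beside AT1G09200, and quantile normalization called all 4 lower. All 4 H3.1 differences were below 0 under every scaling.

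Within each tag year the H3.1 genes gave the same sign. In the earlier year the differences were −0.36 for AT1G09200, −0.61 for AT5G10390, −0.25 for AT5G10400 and −0.28 for AT5G65360, beside a median of 0.15 over all loci. In the later year they were −0.35, −0.39, −0.21 and −0.20, beside a median of 0.11. All 8 values thus lay below the median of their year.

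Among the H3.3 genes, AT4G40040 had 89.6 and 87.9 FPKM in dbr1-2 against 74.3 and 72.3 FPKM in Col-0, without overlap. The difference of 0.27 ± 0.08 missed the threshold (adjusted p = 0.0623) and passed it with no filter on low loci (0.0308), among loci with a mean of at least 5 FPKM (0.0331) and with only the groups compared (0.0251). AT4G40030 had 63.2 and 54.6 FPKM against 57.6 and 50.9 FPKM, with overlapping groups (0.11 ± 0.17, adjusted p = 0.705). AT5G10980 had 31.7 and 32.2 FPKM against 29.8 and 34.0 FPKM, again overlapping (0.01 ± 0.22, adjusted p = 0.992). The signs of AT4G40030 and AT5G10980 turned under each of the 4 other scalings, so no direction is given for them.

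**Figure D2:**
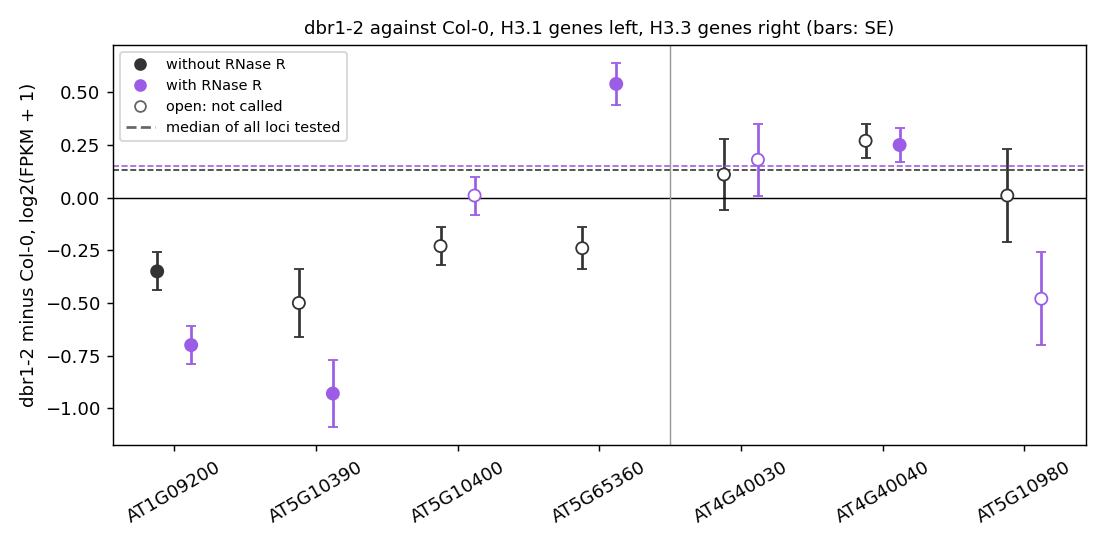
Difference between dbr1-2 and Col-0 on the log2(FPKM + 1) scale (points, with bars for the SE) for each gene without and with RNase R; filled points were called and dashed lines mark the median of all loci tested, 0.13 and 0.15. Without RNase R the 4 H3.1 genes lie between −0.50 and −0.23, and with RNase R they spread from −0.93 to 0.54.

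The balance between the classes does not depend on a scaling factor per library, because both are read in the same library. The 4 H3.1 genes together had 120 and 115 FPKM in undigested Col-0 and 94.4 and 93.7 FPKM in undigested dbr1-2. The 3 H3.3 genes had 162 and 157 FPKM against 184 and 175 FPKM. H3.1 therefore made up 42.6% and 42.2% of the summed H3 level in Col-0, against 33.9% and 34.9% in dbr1-2, or 42.4% ± 0.275 against 34.4% ± 0.734 (SD, n = 2). The groups did not overlap, and the difference was many times the spread between replicates. No test was made of this sum, in which AT3G27360 has no part.

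With RNase R the Col-0 libraries had shares of 37.4% and 36.9%, and the dbr1-2 libraries had 28.7% and 29.6%. The H3.1 share was thus lower in dbr1-2 in both preparations, with no overlap between genotypes in either. With RNase R this rested mainly on AT1G09200, which made up 61.2% and 67.1% of the H3.1 sum in Col-0. Its mean was 25.7 FPKM in Col-0 and 15.4 FPKM in dbr1-2. AT5G10390 had means of 2.40 and 0.760 FPKM, AT5G10400 of 6.30 and 6.35 FPKM, and AT5G65360 of 5.62 and 8.65 FPKM. The H3.1 share was also lower with RNase R than without it in each genotype.

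**Figure D3:**
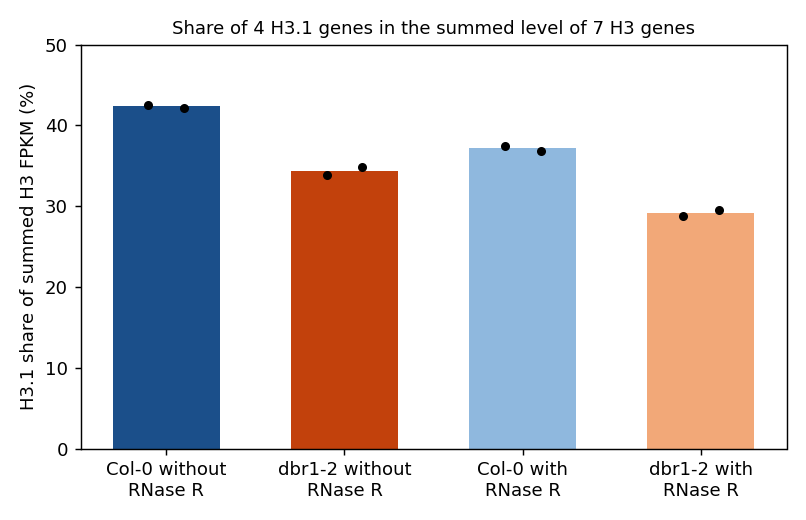
H3.1 share (%) of the summed FPKM of 7 H3 genes; bars are group means and points single libraries. The dbr1-2 bars stand below the Col-0 bars without RNase R (34.4% against 42.4%) and with it (29.2% against 37.2%).

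Genes of the other core histones were read beside them. H4 is the partner of H3 in the tetramer at the centre of the nucleosome, and its 8 genes all lay below 0 in dbr1-2 without RNase R (median −0.33), but 0 of 8 passed the test in limma and 0 had an unadjusted p under 0.05. AT3G45930 had 6.8 and 5.09 FPKM in dbr1-2 against 8.81 and 7.08 FPKM in Col-0 (−0.37 ± 0.19, adjusted p = 0.233), apart by less than the gap within either group. Canonical H2A genes, for the replicative form of H2A, had 3 of 4 below 0 and 0 called, with 2 at an unadjusted p under 0.05. HTA10 was the lowest of them in p, with 18.7 and 16.1 FPKM in dbr1-2 against 21.4 and 21.3 FPKM (−0.29 ± 0.09, adjusted p = 0.0784).

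The counts of calls depend on the scaling. Canonical H2A had 2 of 4 genes called lower after median-ratio scaling and 2 after quantile normalization, HTA10 among them both times (adjusted p = 0.0239 and 0.0134), 1 as TPM and 0 with organelle and ribosomal RNA loci removed. H4 had 3 of 8 called lower as TPM and 0 after the other scalings.

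Of 7 tested H2B genes 6 lay below 0 and 1 was called lower: AT2G28720 had 3.7 and 3.37 FPKM in dbr1-2 against 7.05 and 6.89 FPKM in Col-0 (−0.81 ± 0.20, adjusted p = 0.0293). That call was lost with a pseudocount of 0.1 (adjusted p = 0.266), with no filter (0.134), after median-ratio scaling (0.0668) and with the tag year as a covariate (0.06). It was also lost when any 1 of the 4 libraries compared was left out, with differences of −0.87 to −0.76. As TPM, with 9 H2B genes tested, 4 were called lower, with organelle and ribosomal RNA loci removed 2 of 9, after quantile normalization 3 of 7 and after median-ratio scaling 2 of 7. Of 8 genes for H2A variants 6 lay below 0 and 0 were called lower. Only 1 was called higher, the H2A.W gene HTA12, at 2.48 and 2.11 FPKM against 1.39 and 1.36 FPKM (0.47 ± 0.12, adjusted p = 0.0381). That call was lost with a pseudocount of 0.1 (0.70, adjusted p = 0.568), with no filter (0.47, 0.118) and after median-ratio scaling (0.32, 0.289). Quantile normalization (0.35, 0.157) and the tag year as a covariate (0.47, 0.0663) lost it too. Without any 1 of the 4 libraries it was again lost, with differences of 0.39 to 0.55. HTA5, an H2A.X gene, had 14.9 and 14.1 FPKM against 19.4 and 19.0 FPKM without a call (−0.38 ± 0.12, adjusted p = 0.0588). It was called lower after quantile normalization (−0.55, adjusted p = 0.0244) and as TPM (−0.54, 0.0209). Both scalings called 2 of the 8 genes lower, and median-ratio scaling and removal of organelle and ribosomal RNA loci 0.

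The DNA replication genes, with which H3.1 genes are usually expressed, had 13 of 15 tested and all 13 below 0, with a median of −0.22. In limma 0 of 13 were called and 7 had an unadjusted p under 0.05. MCM6, a subunit of the replicative helicase, had 2.27 and 2.37 FPKM in dbr1-2 against 3.16 and 3.4 FPKM in Col-0 (−0.37 ± 0.11, adjusted p = 0.0577). CDT1A, which licenses origins, gave −0.34 ± 0.11 (adjusted p = 0.0677), and the helicase subunit genes MCM2 and MCM3 gave −0.32 (0.0746) and −0.35 (0.0848). All tested genes of the list stayed below 0 under every scaling, and 2 were called lower after median-ratio scaling, 8 after quantile normalization, 6 as TPM and 0 with organelle and ribosomal RNA loci removed.

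Of 11 tested H3 chaperone genes 0 were called and 2 had an unadjusted p under 0.05. NRP2, a nucleosome assembly protein gene, had 4.58 and 4.83 FPKM in dbr1-2 against 6.5 and 6.56 FPKM (−0.40 ± 0.15, adjusted p = 0.104). FAS2, for a subunit of the chromatin assembly factor that deposits H3.1, had 0.959 and 0.904 FPKM against 1.27 and 1.5 FPKM (−0.30 ± 0.12, adjusted p = 0.142). As TPM 3 of the 11 were called lower, and after quantile normalization or with organelle and ribosomal RNA loci removed 1. Of 9 mitosis genes 0 were called and 0 had an unadjusted p under 0.05, with 6 below 0. After median-ratio scaling, after quantile normalization, as TPM and with organelle and ribosomal RNA loci removed 8 of the 9 lay below 0. Quantile normalization called 1 of them lower and TPM 2, and the other scalings 0. ATXR5, which methylates H3.1, was the 1 gene tested of 3 readers and writers of H3.1, and gave −0.07 ± 0.14 (adjusted p = 0.788).

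Mature pollen and green tissue markers moved with the genotype as whole lists, and meristem and floral organ identity markers only in part. Fewer cells of a type and less RNA per cell cannot be told apart in these bulk samples. All 4 mature pollen markers were lower in dbr1-2 without RNase R, and their summed level was 16.4 to 17.6 FPKM in Col-0 and 5.05 to 5.63 FPKM in dbr1-2. All 4 green tissue markers were higher, with a summed level of 254.5 to 267.7 FPKM in Col-0 and 609.8 to 621.1 FPKM in dbr1-2. The summed level of 5 meristem markers, of which CLV3 was listed at 0 in all 8 libraries, was 8.11 to 8.89 FPKM and 14.1 to 14.9 FPKM. Of these, 3 passed the filter and 1 was called higher, STM, with a mean of 5.15 FPKM in Col-0 and 10.5 FPKM in dbr1-2 (SD 0.264 and 0.506, n = 2 each; 0.90 ± 0.15, adjusted p = 0.00701), which carried most of the difference between the sums. All 5 floral organ identity genes were above the filter in these inflorescences. Their summed level overlapped between genotypes, at 52.6 to 54.9 FPKM and 50.3 to 53.3 FPKM, but 2 of the 5 were called lower in dbr1-2, AP1 (−0.41 ± 0.10, adjusted p = 0.0254) and SEP3 (−0.45 ± 0.11, 0.0275). PI had 21.3 and 20.4 FPKM in dbr1-2 against 14.8 and 15.0 FPKM in Col-0 without a call (0.46 ± 0.15, 0.0852). With organelle and ribosomal RNA loci removed, 1 of 4 green tissue markers and 0 of 5 floral organ identity genes were called, and as TPM 3 of 4 and 2 of 5. After median-ratio scaling 3 of 4 pollen markers were called, and with a pseudocount of 0.1 2 of 4. The part of these markers in the H3.1 values was not tested.

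**Figure D4:**
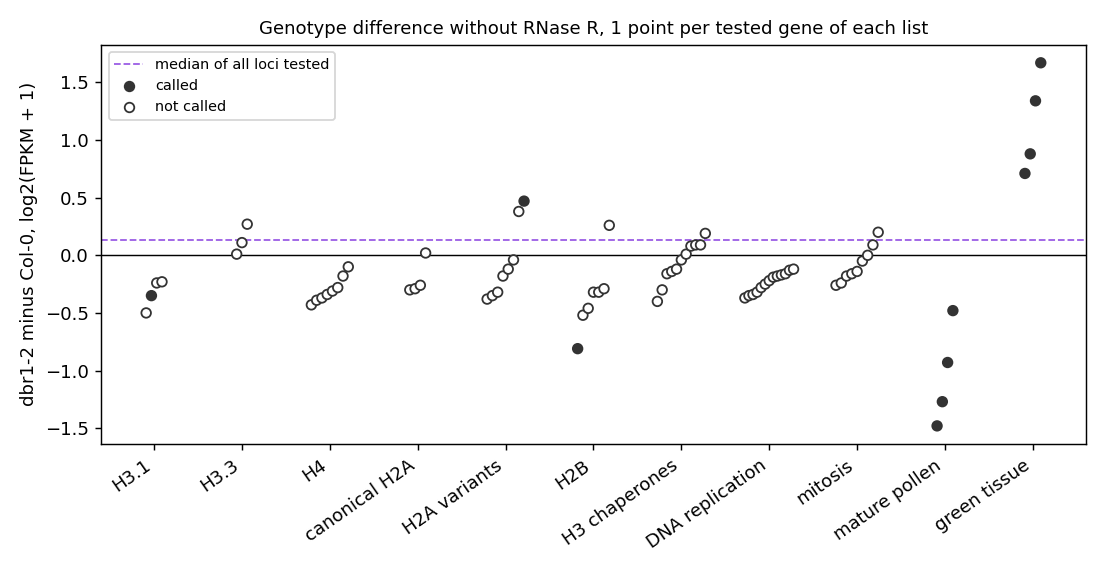
Difference between dbr1-2 and Col-0 without RNase R on the log2(FPKM + 1) scale, 1 point per tested gene, for lists of histone, chromatin, cell cycle and marker genes; filled points were called and the dashed line is the median of all loci, 0.13. The 8 H4 genes and 13 DNA replication genes all lie below 0 as open points, the 4 pollen markers are called lower and the 4 green tissue markers higher, of which 1 stayed called with organelle and ribosomal RNA loci removed.

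With RNase R, the same comparison of dbr1-2 with Col-0 reads the RNA left after digestion of linear molecules, and here the H3.1 genes did not move together. AT1G09200 and AT5G10390 were lower in dbr1-2, AT5G65360 was higher, and AT5G10400 did not pass the test. Of all loci 29.9% were called higher (4298) and 7.09% lower (1017), with a median difference of 0.15. That split was 3522 higher and 1973 lower after median-ratio scaling and 2589 and 3071 after quantile normalization. It was 1185 and 217 as TPM and 772 and 147 with organelle and ribosomal RNA loci removed, and 2139 and 284 with the tag year in the fit. That fit takes the year effect from the libraries without RNase R alone, because year and genotype coincide in the digested ones. It therefore cannot separate year from genotype here, whether a call is kept or lost. Among the 7 genes, 2 were called higher and 2 lower. These 4 calls also stood without dbr1-2 replicate 1, the library whose tag names removal of ribosomal RNA only.

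AT1G09200 had 16.0 and 14.9 FPKM in dbr1-2 against 24.2 and 27.2 FPKM in Col-0, without overlap. The difference was −0.70 ± 0.09 (adjusted p = 0.000738), and it rests on an estimated 160 and 208 reads, with a counting error of 0.15 on the log2 ratio. The call was lost with organelle and ribosomal RNA loci removed (−1.02, adjusted p = 0.169).

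AT5G10390 had 0.702 and 0.818 FPKM against 2.96 and 1.84 FPKM. The groups did not overlap, although the Col-0 replicates were far apart, and the difference was −0.93 ± 0.16 (adjusted p = 0.00258). Its call was lost as TPM (adjusted p = 0.0803) and with organelle and ribosomal RNA loci removed (0.0698). Both dbr1-2 values were below 1 FPKM, where 1 FPKM on a kilobase rested on only 12.6 and 12.9 reads. Reads were not estimated for this gene, whose interval is shared with AT5G10370, so its counting error is not known.

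AT5G65360 had 9.23 and 8.07 FPKM in dbr1-2 against 5.73 and 5.52 FPKM in Col-0, the reverse of its order without RNase R. The difference was 0.54 ± 0.10 (adjusted p = 0.00403). It rests on only 116 estimated reads in dbr1-2 and 59 in Col-0, so the counting error of the log2 ratio, 0.23, was larger than the SE of the fit. The call was lost after quantile normalization (0.06, adjusted p = 0.632), as TPM (0.25, 0.635), with organelle and ribosomal RNA loci removed (0.18, 0.975) and with tag year as a covariate (0.43, 0.0851).

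AT5G10400 had 6.45 and 6.24 FPKM against 6.63 and 5.96 FPKM, with overlapping groups (0.01 ± 0.09, adjusted p = 0.938). Its counting error was 0.25 from an estimated 76 and 59 reads, so a difference of that size was not detectable at this depth. After quantile normalization it was called lower (−0.48, adjusted p = 0.00538), so it is given no direction.

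Among the H3.3 genes, AT4G40040 had 43.2 and 45.1 FPKM in dbr1-2 against 35.7 and 38.2 FPKM in Col-0, without overlap. Its difference of 0.25 ± 0.08 passed the threshold narrowly (adjusted p = 0.049), and the call was lost without any 1 of 7 of the 8 libraries and under each other scaling, where the sign also turned after quantile normalization and with organelle and ribosomal RNA loci removed (−0.24 and −0.12). AT4G40030 had 31.3 and 22.2 FPKM against 21.0 and 25.7 FPKM, overlapping (0.18 ± 0.17, adjusted p = 0.462). AT5G10980 had 5.69 and 4.03 FPKM against 9.25 and 5.39 FPKM, also overlapping (−0.48 ± 0.22, adjusted p = 0.133). The last was called lower after median-ratio scaling (−0.68, 0.0493), after quantile normalization (−0.95, 0.0138) and without Col-0 replicate 2 with RNase R (−0.82, 0.0173).

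Replicative H2A genes were lower in dbr1-2 with RNase R in 4 of 4 cases, against 1 of 4 as TPM and 0 of 4 with organelle and ribosomal RNA loci removed. HTA10 had 9.15 and 8.7 FPKM against 15.2 and 15.1 FPKM (−0.70 ± 0.09, adjusted p = 0.000883), close in size to AT1G09200. Of 7 tested H2B genes 4 were lower, among them HTB2 at 12.9 and 10.6 FPKM against 23.4 and 20.0 FPKM (−0.84 ± 0.12, adjusted p = 0.00109). Of 8 H4 genes 1 was lower, AT3G45930 (−0.73 ± 0.19, adjusted p = 0.0193), and 4 lay on each side of 0. Of 11 tested H3 chaperone genes 3 were called higher and 1 lower, near the shares of all loci (29.9% and 7.09%). MSI1, shared by several chromatin complexes, was lower (−0.71, adjusted p = 0.000996). HIRA (0.81, 0.00174) and UBN1 (0.90, 0.00232), which belong to the complex that deposits H3.3, and NRP2 (0.60, 0.0144) were higher. As TPM these 3 were not called (adjusted p = 0.146, 0.109 and 0.452), and NRP2 lost its call also without dbr1-2 replicate 1 (0.061). Of 13 DNA replication genes 3 were lower and 1 higher, the large ribonucleotide reductase subunit gene RNR1 lowest in p (−0.53 ± 0.09, adjusted p = 0.00243). With the tag year as a covariate 1 of 4 replicative H2A, 1 of 7 H2B, 2 of 8 H4 and 0 of 13 DNA replication genes were called lower. H2B had 4 of 7 called lower after median-ratio scaling and 6 of 7 after quantile normalization. As TPM 2 of 9 H2B genes were called lower, and with organelle and ribosomal RNA loci removed 1 of 9. With organelle and ribosomal RNA loci removed, none of the 8 genes named here kept its call. The differences of the lower genes were then as large or larger, at −0.99 for HTA10, −1.14 for HTB2, −0.74 for AT3G45930, −0.90 for MSI1 and −0.72 for RNR1, and those of the higher genes were smaller, at 0.42 for HIRA, 0.49 for UBN1 and 0.26 for NRP2. AT3G45930 lost its call also without either Col-0 library or without dbr1-2 replicate 2 (adjusted p from 0.0646 to 0.0727). The markers differed here too, with summed levels in Col-0 and dbr1-2 of 7.76 to 8.16 and 3.07 to 4.70 FPKM for pollen and of 150.3 to 159.2 and 303.3 to 308.4 FPKM for green tissue, and their part in these results was not tested.

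All 7 genes had lower FPKM with RNase R than without it in both genotypes. In Col-0 8.27% of all loci were called higher (1187) and 71.0% lower (10188), with a median change of −0.66. In dbr1-2 15.0% were called higher (2159) and 69.3% lower (9939), with a median of −0.69. Against these shares, 7 of 7 genes called lower is near the background, and the sizes relative to the median say more. Median-ratio scaling, which takes that median away, split the calls into 4062 higher and 4168 lower in Col-0 and 4460 and 4366 in dbr1-2. Quantile normalization gave 4192 and 4260, and 3818 and 5178. As TPM the medians were −2.44 in Col-0 and −2.43 in dbr1-2, with 185 higher and 17054 lower, and 258 and 16981. With organelle and ribosomal RNA loci removed they were −2.83 and −2.87, with 187 higher and 18366 lower, and 234 and 18280.

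In Col-0 the smallest changes were those of AT1G09200 (−0.96 ± 0.09, adjusted p = 4.32e-05), AT4G40040 (−0.97 ± 0.08, 2.73e-05) and AT4G40030 (−1.19 ± 0.17, 0.000415). Percentages kept are ratios of FPKM, which is scaled in each library, and not the part of the RNA that survived digestion. As FPKM, AT1G09200 kept 50.7% of its level without RNase R, AT4G40040 50.5% and AT4G40030 43.0%, around the median of 47.2% over all loci tested. After median-ratio scaling and after quantile normalization none of these 3 was called. The other 4 were called lower under both: AT5G10390 kept 26.2%, AT5G10400 26.2%, AT5G10980 22.9% and AT5G65360 16.9%. The change of AT5G65360 in Col-0, −2.37 ± 0.10 (adjusted p = 1.46e-06), was the largest of the 7.

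In dbr1-2 the median locus kept 47.3%. AT4G40040 kept 49.8% (−0.99 ± 0.08, adjusted p = 2.03e-05) and AT4G40030 45.5% (−1.12 ± 0.17, 0.00047), again close to the median. Both lost their call after median-ratio scaling (−0.05, adjusted p = 0.623, and −0.20, 0.28) and kept it after quantile normalization (−0.59 and −0.65), where the median of all loci was −0.12. AT1G09200 kept 39.1%, AT5G10400 31.1%, AT5G65360 30.9%, AT5G10980 15.2% and AT5G10390 12.3%. As percentages kept, the 2 adjacent H3.3 genes were near the median locus in both genotypes, while AT5G10980 was far below it. Neither class was uniform, and the intronless genes spanned 16.9% to 50.7% in Col-0 and 12.3% to 39.1% in dbr1-2.

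**Figure D5:**
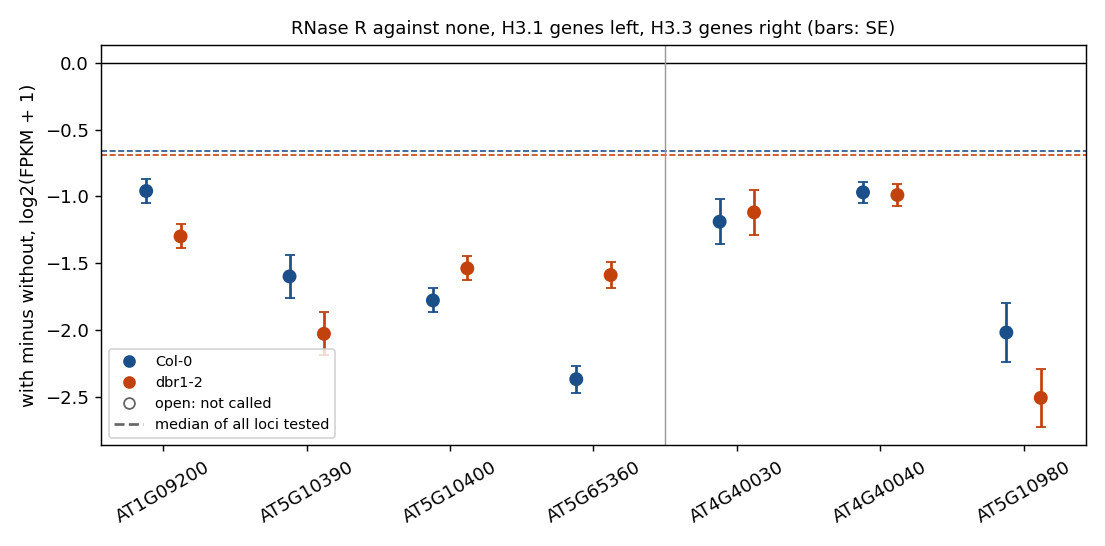
Change with RNase R against none on the log2(FPKM + 1) scale (points, with bars for the SE) in Col-0 and dbr1-2; dashed lines mark the median of all loci tested, −0.66 and −0.69. AT1G09200 (−0.96) and AT4G40040 (−0.97) lie nearest to the median in Col-0 and AT4G40040 (−0.99) and AT4G40030 (−1.12) in dbr1-2, and AT5G65360 shows the widest gap between genotypes, −2.37 in Col-0 and −1.59 in dbr1-2.

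The difference between genotypes in the change with RNase R was tested as an interaction. Over all loci 10.8% were called higher (1544) and 2.99% lower (429), a split that was 1265 and 1127 after quantile normalization, 1214 and 838 as TPM and 740 and 571 with organelle and ribosomal RNA loci removed. Of the 7 genes only AT5G65360 was called, with 0.78 ± 0.14 (adjusted p = 0.0101): its fall with RNase R was smaller in dbr1-2. The counting error of the same quantity was 0.24 on the log2 FPKM scale, where it was 0.87. The call was lost as TPM (0.127), with organelle and ribosomal RNA loci removed (0.667), with tag year as a covariate (0.0891) and without either Col-0 replicate 1 or dbr1-2 replicate 2 among the libraries without RNase R (0.056 and 0.0639). The other genes gave −0.34 (AT1G09200, adjusted p = 0.125), −0.43 (AT5G10390, 0.25), 0.24 (AT5G10400, 0.257), 0.06 (AT4G40030, 0.894), −0.02 (AT4G40040, 0.926) and −0.49 (AT5G10980, 0.364).

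Over the 8 libraries all pairs of H3.1 genes were positively correlated, to different degrees. Pearson correlations of log2(FPKM + 1) between pairs of H3.1 genes ran from 0.818 for AT1G09200 with AT5G65360 to 0.982 for AT5G10400 with AT5G65360, and among H3.3 genes from 0.903 to 0.958. Pairs across the classes ran from 0.759 to 0.973, and the ranges of the 3 kinds of pair overlap. These values describe 8 libraries that share digestion and depth. Among 3852 other loci with at least 5 FPKM without RNase R, the most like the mean of the H3.1 genes were AT5G39410 (r = 0.998), AT3G11964 (0.9977), AT5G47210 (0.9971), ECT3 (0.997) and AT4G04340 (0.9969). The most like the H3.3 mean were AT5G44320 (0.9997), HMG (AT3G28730, 0.999), AT4G16450 (0.9989), GH9B7 (0.9987) and AT4G00560 (0.9985).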

How the data were processed

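The authors deposited 1 table of FPKM per locus for the 8 libraries. TopHat2 2.0.13, Cufflinks 2.2.1, Cuffnorm 2.2.1 and TAIR10 are named per the submitters' processing notes, without settings. Libraries were stranded, per the labels' protocols, but no source used here says if strand was counted. Column names matched the labels for all 8 libraries.

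Loci that reached 1 FPKM in 2 or more libraries were fitted in limma 3.58.1 (R 4.3.3) as log2(FPKM + 1) in 4 groups, with contrasts, eBayes with a trend and 4 residual degrees of freedom. A call needed a two-sided Benjamini-Hochberg adjusted p under 0.05 over the 14351 loci tested. The fit was first tested on simulated data. Members and 16 gene lists (103 genes, 100 in the table) were chosen with earlier results of these data known, and the promoter motifs after the data were seen. All members are named, with at most 4 genes per list, those with the smallest p, and the 5 loci most like each class.

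Reads were estimated from the steps between low values of intronless genes, with intervals shortened by 199 nt (an assumed fragment correction), and counting errors cover counting only. Of the loci with 1 nuclear gene name found in TAIR10.1, 100% overlapped the annotated gene. Replicate numbers matched the tag year without RNase R only, where deviations of same-numbered libraries correlated at 0.303. For other pairs of groups r was −0.051 to 0.083, so numbers were not taken to pair samples. Alternatives changed the pseudocount, filter, scaling, eBayes trend, libraries fitted, tag year and replicate block, and left out each library. The effect of tag year could be estimated only from libraries without RNase R and was carried over to the digested ones. Python 3.11.15 with pandas 2.3.3 and matplotlib 3.10.9 drew tables and plots.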

Additional observations from a re-analysis of the deposited data

Results flagged for a closer look

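AT5G65360 was the 1 member whose genotype difference changed with RNase R by a test of that change, with an interaction of 0.78 on the log2(FPKM + 1) scale (adjusted p = 0.0101, limma). Over all loci 10.8% were called higher in that test, so 1 call among 7 genes is near the background. The call was lost as TPM (adjusted p = 0.127), with organelle and ribosomal RNA loci removed (0.667) and with the tag year as a covariate (0.0891). AT5G65360 lay below Col-0 in dbr1-2 without RNase R and above it with RNase R, where Col-0 rested on an estimated 59 reads. With RNase R the tags of the 2 genotypes carry different years, so year and genotype cannot be told apart there.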

How the results depend on the processing

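Without RNase R, the genes called between genotypes went from 1 to 2 with no filter and with a mean FPKM of at least 5, to 3 after median-ratio scaling, to 4 after quantile normalization and with only the groups compared, and to 0 with organelle and ribosomal RNA loci removed and with the tag year as a covariate. Leaving out each library gave 0 to 2. With RNase R, 4 became 1 as TPM, 0 with organelle and ribosomal RNA loci removed and 2 with the tag year. For RNase R in Col-0, 7 became 4 after median-ratio scaling and 4 after quantile normalization, and in dbr1-2 no alternative moved the 7 by over 1.5 times. The interaction went from 1 to 2 after quantile normalization, to 0 as TPM, with organelle and ribosomal RNA loci removed and with the tag year, and to 0 to 2 with each library left out. The cause was not tested. With the replicate block, which the design does not clearly pair, 1, 3, 7, 7 and 1 genes were called in the 5 comparisons, and AT4G40040 with RNase R lost its call (adjusted p = 0.058).

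Signs turned mainly near 0. Without RNase R, AT4G40030 gave −0.05 after median-ratio scaling, −0.03 after quantile normalization, −0.03 as TPM and −0.04 with organelle and ribosomal RNA loci removed, and AT5G10980 gave −0.16, −0.15, −0.14 and −0.15 in that order and −0.09 to 0.10 with 1 library left out. With RNase R, AT5G10400 gave −0.17, −0.48, −0.15 and −0.30, −0.04 with the tag year and −0.06 to 0.08 with 1 library left out. AT4G40030 gave −0.02, −0.39, −0.04 and −0.18, −0.01 with the tag year and −0.06 to 0.42 with 1 library left out, and AT4G40040 −0.24 after quantile normalization and −0.12 with organelle and ribosomal RNA loci removed. RNase R in Col-0 changed AT1G09200 by 0.00 after median-ratio scaling. The interaction was 0.14 for AT5G10390 as TPM, −0.08 for AT5G10400 after quantile normalization, and for AT4G40030 −0.36 after quantile normalization, −0.01 as TPM, −0.15 with organelle and ribosomal RNA loci removed, −0.13 with the tag year and −0.17 to 0.30 with 1 library left out. For AT4G40040 it was −0.07 to 0.03 with 1 library left out. ATXR5 without RNase R gave −0.15 to 0.02 with 1 library left out.

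With RNase R, few reads per FPKM limit the precision of the H3.1 genes, and AT5G10390 stays uncertain because its interval is shared.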
